A study of Mus musculus with 4 samples.

Results

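Transcripts of 35 enzymes, binding proteins and transporters of liver metabolism were followed in mouse heart, in 4 Affymetrix 3' expression arrays. The 35 gene symbols were listed beforehand and were selected on earlier results of these same arrays, in which liver transcripts as a class had been higher in knock-in hearts. The knock-in against wild-type values of these genes are therefore a description, with no test. Of the 35 genes, 33 were measured, by 51 probe sets that the platform annotation assigned to only 1 of the symbols, among 18193 genes and 45101 probe sets in all. Sds and Gls2 were not analysed here. Each gene was represented by its probe set of highest mean over the 4 arrays.

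The arrays held heart RNA of 2 mouse samples with a Ser9Ala replacement in GSK-3beta, aged 3.5 months, and of 2 wild-type samples aged 3.6 months. All were of strain C57B6 and were taken at baseline. GSK-3beta is a kinase that phosphorylation of its serine 9 inhibits, and the replacement removes that site, so the series asks how the heart's transcripts differ when this inhibition is lost. The labels do not say whether the knock-in mice were homozygous, whether replicate samples are separate animals, or how the hearts were dissected. The values were log2 RMA expression (RMA is a background correction, normalization and summary of the probes of a set), and the number of arrays limits their precision. All 10 cardiomyocyte markers were above the background limit on every array, with knock-in minus wild-type differences between 0.00 and 0.09 on the log2 scale. Array medians over all genes lay between 7.11 and 7.13.

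The liver clears the amino groups of amino acids as urea, breaks down the carbon skeletons of tyrosine, tryptophan, histidine and lysine, makes S-adenosylmethionine from methionine, releases glucose into blood, and conjugates and takes up bile acids. Most enzymes of these routes are made in hepatocytes under the control of HNF1, HNF4 and C/EBP transcription factors, and several are also made in kidney or intestine. Heart muscle uses other members of the same enzyme families for its own fuel metabolism, such as Fabp3 in place of Fabp1 and Gys1 in place of Gys2.

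The promoters of 3 members are shown because they are the genes of the largest measured differences, Fabp1 and Bhmt, and the only member with a match to the HNF1 motif, G6pc. Each is the stretch of 250 bases before the transcription start, 5′ to 3′ on the gene's strand, from RefSeq on GRCm38.p6. Capitals mark matches to the motifs searched. Fabp1 lies at chr6:71199629-71199878 on the plus strand, Bhmt at chr13:93637759-93638008 on the minus strand and G6pc at chr11:101367466-101367715 on the plus strand.
Fabp1: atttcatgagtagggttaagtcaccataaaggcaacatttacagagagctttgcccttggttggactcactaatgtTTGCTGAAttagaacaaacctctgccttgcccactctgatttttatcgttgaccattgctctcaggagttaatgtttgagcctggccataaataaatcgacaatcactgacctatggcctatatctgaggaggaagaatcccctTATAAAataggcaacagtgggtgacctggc
Bhmt: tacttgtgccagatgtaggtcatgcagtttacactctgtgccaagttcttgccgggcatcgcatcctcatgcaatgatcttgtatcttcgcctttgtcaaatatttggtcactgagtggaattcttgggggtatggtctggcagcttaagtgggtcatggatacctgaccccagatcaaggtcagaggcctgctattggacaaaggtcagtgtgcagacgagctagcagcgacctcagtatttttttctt
G6pc: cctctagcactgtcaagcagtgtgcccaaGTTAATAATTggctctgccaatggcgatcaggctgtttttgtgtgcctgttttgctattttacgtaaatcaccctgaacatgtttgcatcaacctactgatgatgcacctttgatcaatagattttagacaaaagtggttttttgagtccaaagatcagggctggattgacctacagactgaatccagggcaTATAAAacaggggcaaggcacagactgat

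The table of promoters held 28 of the 33 measured members with 30 promoters, each of 250 bases before and 50 after the start. The motifs were searched on both strands, and no match in the 3 sequences shown overlapped another. The HNF1 motif was found in 1 of the 30 promoters, that of G6pc, 221 bases before the start, and in 0.399% of all 32851 promoters of the same length. The HNF4 motif CAAAGTCCA was found in 0 of the 30 and in 0.475% of all. The C/EBP motif TTGCNNAA was found in 7 of the 30 (Aass, Fabp1, Hal, Hao1, Hgd, Slc10a1 and Uox) and in 10.8% of all. The TATA box TATAAA was found in 10 of the 30 and in 13.6% of all, and in Fabp1 and G6pc it began 30 and 29 bases before the start. The Bhmt promoter held none of the 4 motifs. These matches describe letters only. Only exact matches to 1 spelling of each motif were counted, so near matches were missed. A link between the motifs and the measured differences was not tested.

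RMA gives no detection call, so background was set from 75 genes for smell, pheromone and taste receptors. A member was counted as above background on an array when it exceeded the 95th percentile of these receptor genes there, which was 6.23, 6.25 and 6.23 in wild-type 1, wild-type 2 and knock-in 1 and 5.99 in knock-in 2. Probe sets differ in brightness, so this limit is a convention and not proof that a transcript is present or absent. Above it were 13 members in wild-type 1, 12 in wild-type 2, 13 in knock-in 1 and 17 in knock-in 2. The count of knock-in 2 was taken against the lowest limit, so it is not like for like with the others. Akr1c6, at 6.04 there, lay under the limits of the other arrays. In all, 12 members passed it on every array, 5 on 1 or 2 arrays (Cps1, Bhmt, Akr1c6, Ftcd and Fabp1), and 16 stayed at background on all 4. The 16 were Otc, Ass1, Arg1, Mat1a, Tdo2, Kmo, Hal, Aass, Agxt, Hao1, Uox, G6pc, Pck1, Gys2, Slc10a1 and Slco1b2, with values between 3.42 and 5.97. The mean level of 6 members exceeded the median over all genes.

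In knock-in hearts 24 of the 33 members were higher on average and 9 lower, a split that was 22 and 11 with each array centred on its median over genes and 27 and 6 with it centred on all probe sets. The median difference was 0.14 on the log2 scale, where the median of all 18193 genes was 0.00. Both knock-in arrays lay above both wild-type arrays for 15 of the 33, where 19.6% of all genes did so, and below them for 1 (Aass), where 17.0% of all genes did so. Among the 27 members at or below the median level of all genes, 13 lay above, where 12.5% of the genes at that level did so. Because the members were chosen with this contrast known, nothing is read from these shares. In limma's fit over all genes, 0 of the 33 passed at an adjusted p under 0.05, a threshold that 0.0055% of genes passed. At an unadjusted p under 0.05, 9 members were higher, against 4.4% of all genes. Neither count is a test, because the members were chosen on these same arrays. A measured difference of at least 1 on the log2 scale (2-fold between values above background) was reached by 2 members, Fabp1 and Bhmt. It was reached by 0.165% of all genes. Both members were under the background limit on both wild-type arrays, so their measured differences are not read as folds.

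**Figure D1:**
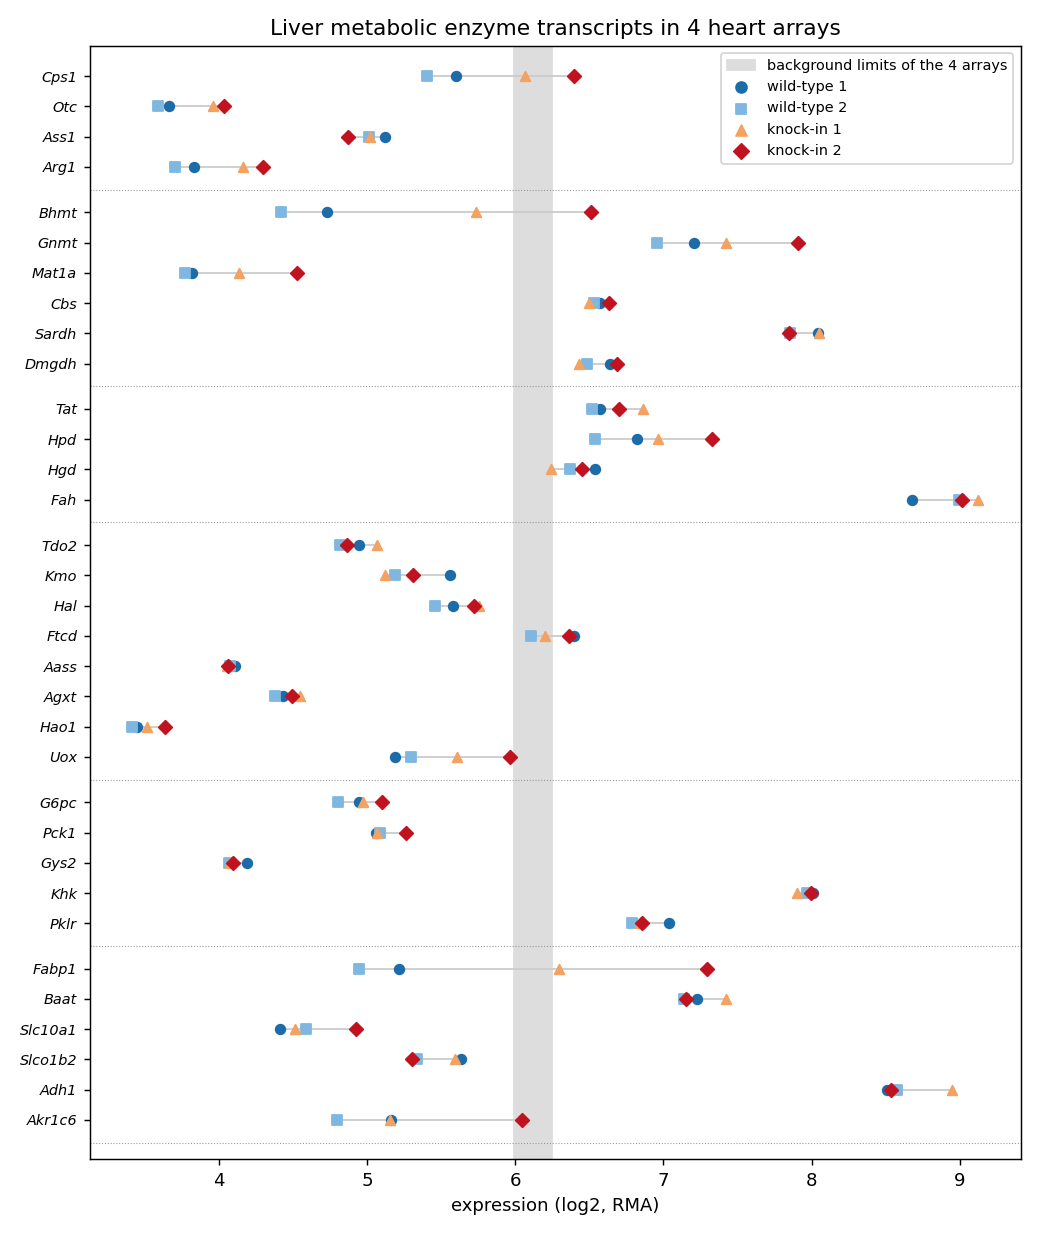
Expression of the 33 measured members (log2 RMA, x axis), 1 row a gene grouped by role, with 1 symbol for each of the 4 arrays and a grey band over the background limits of the arrays (5.99 to 6.25). Fabp1 and Bhmt spread widest, with both wild-type arrays left of the band, and most other members span less than 1 log2 unit.

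Among the urea cycle genes, Cps1, Otc and Arg1 were higher in both knock-in arrays and Ass1 was not. Cps1, which encodes the mitochondrial enzyme that makes carbamoyl phosphate from ammonia, was at 5.60 and 5.40 in wild-type 1 and 2 and at 6.07 and 6.40 in knock-in 1 and 2. Only knock-in 2 exceeded its background limit. The difference was 0.73 ± 0.14 (log2, SE of the limma fit with 2 arrays per group). Otc, whose enzyme joins carbamoyl phosphate to ornithine, was at 3.67 and 3.59 against 3.97 and 4.04, and Arg1, the arginase that releases urea, at 3.83 and 3.70 against 4.17 and 4.30. Both stayed at background, with differences of 0.37 ± 0.10 and 0.46 ± 0.11, and averaging the probe sets of Otc gave 0.20. Ass1, which encodes argininosuccinate synthase and is also made in blood vessel walls, was at 5.13 and 5.01 against 5.02 and 4.87. Its groups overlapped.

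The methionine and methyl group genes divided into 3 that were higher in both knock-in arrays and 3 that hardly differed. Bhmt encodes the enzyme that remethylates homocysteine with betaine and is made almost only in liver and kidney. It was at 4.73 and 4.42 in wild-type 1 and 2 and at 5.74 and 6.51 in knock-in 1 and 2, a measured difference of 1.55 ± 0.25. The knock-in arrays differed from each other by 0.77, more than the 0.31 between the wild-type arrays. Only knock-in 2 exceeded the limit, and the knock-in mean of 6.13 lay under the wild-type arrays' mean limit of 6.24, so no fold is given. Gnmt, the methyltransferase that consumes surplus S-adenosylmethionine, was at 7.20 and 6.96 against 7.42 and 7.91, above background on every array, and differed by 0.59 ± 0.18, or by 0.34 without knock-in 2. Mat1a, the liver form of methionine adenosyltransferase, was at 3.82 and 3.77 against 4.13 and 4.53 and stayed at background. Its difference of 0.54 ± 0.15 was 0.34 without knock-in 2.

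Cbs, Sardh and Dmgdh were above background on all 4 arrays, and their groups overlapped. Cbs, which turns homocysteine into cystathionine, was at 6.57 and 6.53 against 6.50 and 6.63. Sardh and Dmgdh, the mitochondrial dehydrogenases of sarcosine and dimethylglycine, were at 8.04 and 7.85 against 8.05 and 7.85, and at 6.64 and 6.49 against 6.43 and 6.68. Their 3 differences lay between -0.01 and 0.01, and those of Cbs and Sardh turned negative with each array centred over genes. Dmgdh uses the product of the Bhmt reaction, and in the RefSeq gene order Bhmt, Bhmt2 and Dmgdh are consecutive protein-coding genes. Bhmt2, which is not a member, was at 3.91 and 3.96 against 4.01 and 4.01 (difference 0.07, limma, adjusted p = 0.929). It stayed at background on every array, so this value does not show whether Bhmt2 differed.

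Of the tyrosine breakdown genes, Tat, Hpd and Fah were higher in both knock-in arrays, and all 4 of the group were above background throughout. Tat, the aminotransferase that starts the route, was at 6.57 and 6.52 against 6.86 and 6.70, a difference of 0.24 ± 0.11 that was 0.15 without knock-in 1. Hpd, the dioxygenase that acts after it, was at 6.82 and 6.54 against 6.97 and 7.33, a difference of 0.47 ± 0.16 that was 0.29 without knock-in 2. Fah, the hydrolase of the last step, was at 8.67 and 8.99 against 9.12 and 9.01. The difference of Fah, 0.23 ± 0.13, rested on wild-type 1, without which it was 0.08. Hgd, the dioxygenase in the middle of the route, was at 6.54 and 6.37 against 6.24 and 6.45, with overlapping groups. The 4 genes of the route did not share an order of arrays, as Tat and Fah were highest in knock-in 1 while Hpd was highest in knock-in 2.

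The other amino acid, glyoxylate and urate genes were at background except for Ftcd, and most differed by less than 0.25. Uox, which encodes urate oxidase and is made in liver, came closest to the limit. It was at 5.19 and 5.29 against 5.61 and 5.97, a difference of 0.55 ± 0.14, with knock-in 2 lying 0.03 below its limit. Hal, the histidine ammonia-lyase of liver and skin, was at 5.58 and 5.46 against 5.75 and 5.72. Agxt and Hao1, which clear and make glyoxylate in peroxisomes, were at 4.44 and 4.38 against 4.55 and 4.49, and at 3.45 and 3.42 against 3.52 and 3.64. For these 4 genes both knock-in arrays lay above both wild-type arrays, by 0.11 to 0.55 on average. Ftcd, of the histidine route, was at 6.40 and 6.11 against 6.20 and 6.36, and exceeded the limit in wild-type 1 and knock-in 2 only. Tdo2 and Kmo of the tryptophan route had overlapping groups, with differences of 0.08 and -0.16. Aass, of lysine breakdown, was at 4.11 and 4.07 against 4.06 and 4.07, the only member whose knock-in values were both under the wild-type values. Its difference of -0.03 ± 0.09 was smaller than its error, and its sign turned with each array centred on all probe sets.

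The glucose, glycogen and fructose genes differed least, with a median difference of -0.04 and a range from -0.06 to 0.16. G6pc, the phosphatase that releases free glucose, was at 4.95 and 4.81 against 4.97 and 5.10, and stayed at background. It was the only gene of the group with both knock-in arrays above, by 0.16 ± 0.11. Pck1, which makes phosphoenolpyruvate in the cytosol of liver, kidney and fat, was at 5.06 and 5.09 against 5.07 and 5.27. Gys2, the liver glycogen synthase, differed by -0.04 at background. Khk, the fructose kinase, was at 8.01 and 7.97 against 7.90 and 7.99, and Pklr, the pyruvate kinase of liver and red cells, at 7.04 and 6.79 against 6.84 and 6.85. Khk and Pklr were above background on all arrays, and their groups overlapped.

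Fabp1, the fatty acid binding protein of liver and intestine, had the largest measured difference of the 33. It was at 5.22 and 4.95 in wild-type 1 and 2 and at 6.29 and 7.29 in knock-in 1 and 2, a measured difference of 1.71 ± 0.31. Both wild-type arrays were under the background limit and both knock-in arrays above it, and its knock-in arrays lay further apart than those of any other measured member. Set against the wild-type arrays' mean limit of 6.24 in place of their own values, the knock-in mean of Fabp1, 6.79, was 1.47-fold higher. This bound rested on knock-in 2, as knock-in 1 lay at 6.29. It also depends on the limit chosen, as the 99th percentile of the receptor genes was 6.81 and 6.76 in wild-type 1 and 2. The knock-in mean of the second Fabp1 probe set, 5.29, lay under the mean limit and gives no bound. Akr1c6, a hydroxysteroid dehydrogenase of liver, was at 5.16 and 4.80 against 5.16 and 6.04. Its difference of 0.62 ± 0.29 rested on knock-in 2, without which it was 0.18, and that array passed its limit by 0.05. Adh1, the alcohol dehydrogenase of liver and several other tissues, was at 8.51 and 8.58 against 8.94 and 8.53, high in knock-in 1 only, and without that array the difference was -0.01. Baat, which joins bile acids to glycine or taurine, was at 7.23 and 7.14 against 7.42 and 7.15. The bile acid transporter Slc10a1 was at 4.41 and 4.59 against 4.52 and 4.93, and the organic anion transporter Slco1b2 at 5.63 and 5.34 against 5.60 and 5.30. The difference of Slc10a1, 0.22 ± 0.16, was 0.02 without knock-in 2. For these 5 genes the groups overlapped.

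**Figure D2:**
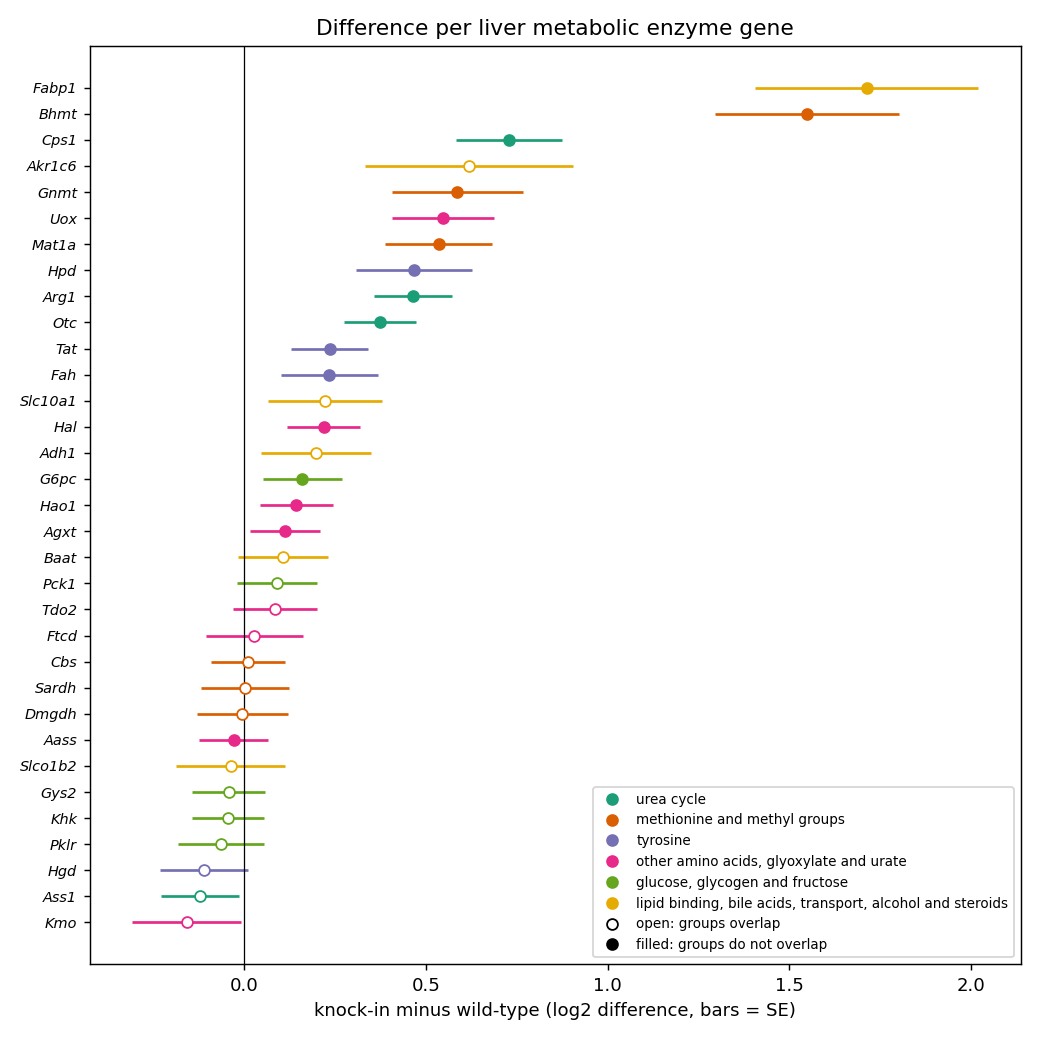
Knock-in minus wild-type difference of each measured member (log2, x axis) with the SE of the limma fit as bars, coloured by role and filled where the 2 groups of arrays do not overlap. Fabp1 (1.71) and Bhmt (1.55) stand apart from the other 31, which lie between -0.16 and 0.73.

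The order of the arrays was the same in many members. It was knock-in 2, knock-in 1, wild-type 1, wild-type 2 from high to low in 10 of the 33 (Cps1, Otc, Arg1, Bhmt, Gnmt, Mat1a, Hpd, Hao1, G6pc and Fabp1), an order that 6.13% of all genes had. Knock-in 2 was the highest array for 16 members, wild-type 1 for 9, knock-in 1 for 8 and wild-type 2 for 0, while wild-type 2 was the lowest for 19. Knock-in 2 exceeded knock-in 1 in 23 of the 33, where 53.9% of all genes did so, and wild-type 1 exceeded wild-type 2 in 28 of the 33, where 58.5% of all genes did so. Among genes at or below the median level, the latter share was 67.5% and the former 45.9%. The receptor genes that set the background had medians of 4.36 and 4.20 in wild-type 1 and 2 and of 4.28 and 4.16 in knock-in 1 and 2. For these receptor genes wild-type 1 was thus the highest array and knock-in 2 the lowest. The part of this offset in the members' order was not tested.

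Of the 33 members, 11 had several probe sets, and the one of highest mean did not always show the same difference as the others. The second probe set of Fabp1 was at 3.66 and 3.63 against 4.34 and 6.24, a difference of 1.65 beside 1.71. Tdo2, the dioxygenase that opens the tryptophan ring in liver, was at 4.95 and 4.82 against 5.07 and 4.87 in the probe set used. Another probe set of Tdo2 was at 4.27 and 4.15 against 4.67 and 5.42, a difference of 0.83 with the array order of Fabp1. For Pck1, where the probe set used gave 0.09, the others gave 0.35 and 0.11 with both knock-in arrays above. For Slco1b2, where the probe set used gave -0.04, another gave 0.34 with both knock-in arrays above, and the remaining ones gave 0.05, -0.01 and -0.05 with overlapping groups. Of the 18 probe sets not used, 14 were higher on average in knock-in hearts and 7 had both knock-in arrays above. Counted per gene, 19.6% of all genes had both knock-in arrays above, and 12.5% of those at or below the median level. All of these values came from the same 4 arrays and add no replicate.

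**Figure D3:**
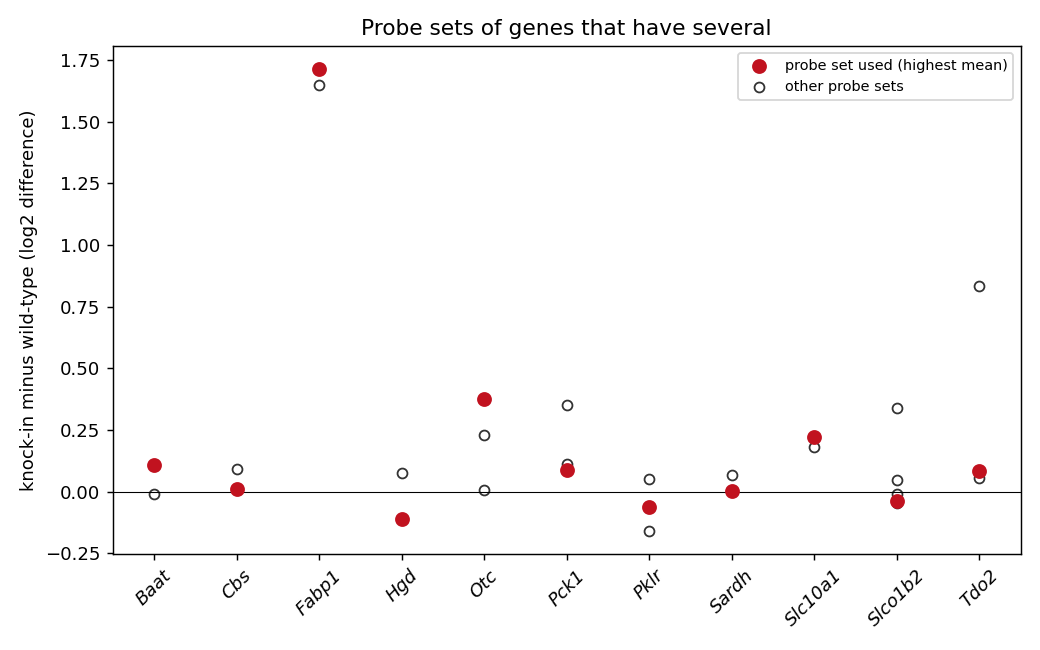
Knock-in minus wild-type difference (log2, y axis) of every probe set of the 11 members that have several, with the probe set used in red and the others open. The 2 probe sets of Fabp1 lie close together (1.65 and 1.71), whereas those of Tdo2 range from 0.06 to 0.83.

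Counterparts, the family members made in heart or more widely, were listed for 9 members, and 7 were measured. Fabp3, the heart fatty acid binding protein, was at 14.34 and 14.31 against 14.36 and 14.44, and Pkm, the muscle pyruvate kinase, at 13.16 and 13.02 against 12.95 and 13.24. For Fabp3 and Gys1 the probe sets disagreed. The second of Fabp3 was at 8.23 and 8.34 against 7.89 and 7.75, a difference of -0.47 with both knock-in arrays lower. Gys1, the muscle glycogen synthase, differed by 0.09 in the probe set used and by -0.15 in the other, G6pc3 by 0.10, the mitochondrial Pck2 by 0.11 and the arginase Arg2, which stayed at background, by 0.08. Adh5, the ubiquitous formaldehyde-clearing relative of Adh1, was at 10.49 and 10.45 against 10.78 and 10.79 (difference 0.32 ± 0.09), while its second probe set, at background, gave -0.07. In limma's fit 0 of the 7 passed (smallest adjusted p = 0.503, for Adh5). At an unadjusted p under 0.05, 1 was higher, against 4.4% of all genes.

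Among 24 other measured genes of liver metabolism, 0 passed in either direction over all genes. At an unadjusted limma p under 0.05, 3 were higher, against 4.4% of all genes. Both knock-in arrays lay above both wild-type arrays for 10 of the 24, where 19.6% of all genes did so, beside 15 of the 33 members. They lay below for 1, where 17.0% of all genes did so. The median difference of the 24 genes was 0.08. Fbp1, the fructose bisphosphatase of gluconeogenesis in liver and kidney, was at 5.45 and 5.50 against 6.43 and 6.48 (difference 0.98 ± 0.10, limma, adjusted p = 0.0771). Cth, which cleaves the cystathionine that Cbs makes, was at 5.47 and 5.45 against 6.08 and 6.30 (difference 0.73 ± 0.11, limma, adjusted p = 0.237). In both genes each knock-in array lay above each wild-type array, and Fbp1 varied less within the groups (0.05 and 0.05) than Fabp1 did. Fbp1 was under the background limit on both wild-type arrays, and Cth was above it in knock-in 2 only. No fold is given for either gene. Of 11 measured liver transcription factors, 0 passed and 1 was lower at an unadjusted limma p under 0.05. That was Onecut1, at background (difference -0.29 ± 0.10, limma, adjusted p = 0.563). The share of all genes lower at an unadjusted p under 0.05 is not given here. Prox1, also a factor of lymphatic vessels and heart muscle, was at 6.62 and 6.93 against 6.91 and 7.46 (difference 0.41 ± 0.20, limma, adjusted p = 0.725), and Hnf4a differed by 0.04.

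Transcripts of liver-secreted plasma proteins had, in sum, the same array order as Fabp1 and Bhmt. Of 20 such genes, 17 had both knock-in arrays above both wild-type arrays and 0 had them below. Over all genes these shares were 19.6% and 17.0%. The median difference of the 20 was 0.92 beside 0.14 for the enzyme genes. In limma's fit 0 of the 20 passed (smallest adjusted p = 0.205), and 17 were higher at an unadjusted p under 0.05, against 4.4% of all genes. This list too was drawn up with earlier results known, so its direction is no independent evidence. Its summed linear level was 1992 and 1595 in wild-type 1 and 2 and 2617 and 4033 in knock-in 1 and 2. The smallest p-values were those of the fibrinogen chain genes Fgb, at 4.51 and 4.85 against 5.98 and 6.50, and Fga, at 5.20 and 4.69 against 6.40 and 6.90. Both genes were under the background limit on both wild-type arrays, and Fgb exceeded it in knock-in 2 only. Alb, the serum albumin gene, stood at 7.01 and 5.54 against 8.58 and 9.66. Apob, Itih3, Kng1 and Plg stayed at background on every array, and Vtn was above it on every array and differed by 0.00. In a tissue sample, more hepatocyte RNA and more of these transcripts per heart cell cannot be told apart, and the part of such RNA in the enzyme values was not tested.

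Kidney and intestine also make several of the enzymes. Most of their own markers stayed at background, as did 16 of the 33 members. The part of kidney or intestine RNA in the enzyme values was not tested. Of 10 kidney markers 6 stayed at background (Slc22a8, Lrp2, Slc34a1, Slc12a1, Slc22a6 and Umod). Slc5a2 and Aqp2 were above it on every array, Kap on 3 and Cubn on 2, and the list's summed level was 711 and 619 in wild-type and 648 and 670 in knock-in hearts. Of 9 measured intestinal markers 8 stayed at background, including Fabp2, Vil1, Lct and Reg3g (difference 0.28), with a summed level of 368 and 346 against 376 and 396. In limma's fit 0 of these 19 passed. At an unadjusted p under 0.05, 2 kidney genes (Cubn and Slc22a8) and 1 intestinal gene (Mttp, which liver and heart also make) were higher. Over all genes 4.4% were. Adipocyte markers went both ways. Of 8 measured, 2 had both knock-in arrays above both wild-type arrays (Car3, at 6.23 and 5.65 against 8.07 and 8.26, and Adipoq) and 2 had them below (Lipe and Aqp7). Over all genes these shares were 19.6% and 17.0%. Lep, Cidec and Ucp1 stayed at background, and Retn was above it on every array and differed by 0.01. The list's summed level was 891 and 796 against 873 and 914, and 0 of the 8 passed (smallest limma, adjusted p = 0.0724, for Car3). At an unadjusted limma p under 0.05, 2 were higher, against 4.4% of all genes, and 2 were lower. The share of all genes lower at that p is not given here.

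**Figure D4:**
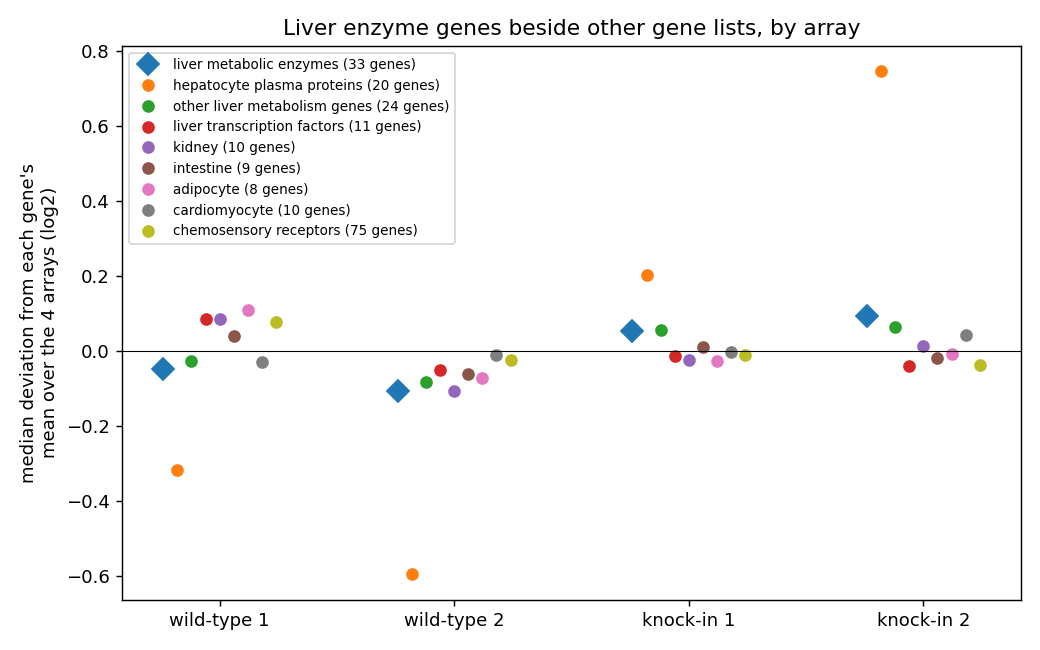
Median, over the genes of a list, of each gene's deviation from its own mean over the 4 arrays (log2, y axis) for each array, with the enzyme genes as diamonds and other lists as circles. Plasma protein genes range from -0.60 in wild-type 2 to 0.75 in knock-in 2, and the enzyme genes from -0.11 to 0.09 with the same order of arrays.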

How the data were processed

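Total RNA from 4 heart samples was hybridised to Affymetrix 3' arrays. The deposited values are log2 expression per probe set, made by the authors with RMA in Affymetrix Expression Console per the submitters' processing notes, and per the labels the wild-type arrays, also used in a GSK-3alpha comparison, were normalized here together with the GSK-3beta knock-in arrays alone. The sources used here name no software version.

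Of 45101 probe sets, 34945 carried 1 symbol, 932 several, 9160 none, and 64 were controls. A RefSeq table (GRCm38.p6) gave current symbols for 34741 of these by Entrez identifier. Knock-in minus wild-type differences over 18193 genes were fitted in limma 3.58.1 (R 4.3.3; lmFit, eBayes). The p-values are two-sided and were adjusted by Benjamini and Hochberg across the 18193 genes, with a threshold of 0.05 and no filter on dim genes. The fit was tested on simulated data. The smallest p that an exact permutation of 2 against 2 arrays allows is 0.333. The labels do not name separate animals, so the p-values reflect only the variation among these samples, possibly technical.

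All measured members are accounted for. Those above background on at least 1 array are given array by array, as are some at background that were chosen after their values were seen. Of the other lists, the counterparts, Alb and the 2 genes of smallest p are named, except that no cardiomyocyte marker is named. In the plasma protein, kidney, intestine and adipocyte lists some other genes at or above background are named too, by no fixed rule. Bhmt2, Hnf4a, Vtn, Retn, Adipoq and Aqp7 were named after their values were seen. Folds against wild-type values under the limit are given only as bounds, computed against that limit. The members and all lists were chosen with earlier results of these data known. Alternatives were the replicate block, an intensity trend with robust prior, other scalings, genes above the median, other choices of probe set, other background limits and leaving out each array.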

Additional observations from a re-analysis of the deposited data

How the results depend on the processing

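The count of members with both knock-in arrays above both wild-type arrays was 15. It was between 15 and 17 under the 3 scalings and both other choices of probe set. The centring on all probe sets was chosen after seeing the data. The replicate block and the intensity trend with robust prior used the same values as the main fit. Neither could change this count, a difference, its sign or the median difference. Among genes above the median the count was 2 of the 6 members left. Leaving out 1 array, when fewer arrays have to lie apart, gave between 18 and 21. The opposite count, of members lower in every knock-in array left, then also reached up to 9 (wild-type 2 omitted), where the main fit had 1. Shares of all genes under this looser rule are not given here, so the larger counts are not read as a stronger result. The median difference stayed between 0.10 and 0.20 in all of these settings. Over all genes, where 1 gene was called, 0 were called with the replicate block, 22 with the trend, 11 after quantile normalization, 11 with each array centred on all probe sets, 7 among genes above the median, 11 with averaged probe sets, 0 with the probe set listed first and 0 without any 1 array. No member was called in any of these fits, where the smallest adjusted limma p of a member was 0.0716 (trend). The replicate numbers share only a number, since the deviations of same-numbered arrays had a correlation of -0.03 over genes, so the block says nothing on effect size. With the 99th percentile of the receptor genes as the background limit 10 members passed it on at least 1 array, and with the median of all genes 8, against 17. The sign of the difference stayed the same in all alternatives for 18 members, among them Fabp1 (1.21 to 2.21) and Bhmt (1.16 to 1.93), and turned in at least 1 for the other 15, each of which differed by under 0.2. With 2 arrays a group and most members dim, small differences cannot be told from background.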
